A study of Mus musculus with 8 samples.

Results

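Immediate early genes are transcribed within minutes of a stimulus from factors that are already present in the cell, with no need for new protein, and in neurons synaptic activity is a main trigger. Calcium entry and MAP kinase signalling act on CREB at cyclic AMP response elements (CRE) and on serum response factor (SRF) at CArG boxes in their promoters. The products are mostly transcription factors, together with proteins that act at the synapse and phosphatases that shut the signal off, and in brain their mRNA levels serve as a record of recent activity. The 10 genes described here are the AP-1 subunit genes Fos, Fosb, Jun and Junb, the zinc finger factor genes Egr1 and Egr2, the nuclear receptor gene Nr4a1, the synaptic effector gene Arc, the MAP kinase phosphatase gene Dusp1 and Ier2. They were chosen by name, and every probe set that carried one of these symbols alone was taken: 12 probe sets for 10 genes, of 22626 tested probe sets and 12393 genes in all. Jun and Egr2 had 2 probe sets each and the others 1.

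The RNA came from the whole brain of 3 months old C57/B6 males. The groups were mice in which SIRT1, an NAD-dependent protein deacetylase, had been deleted in the brain (BSKO) and their wild-type littermates (WT), with 4 biological replicates each. One single-channel Affymetrix Mouse430A_2 array was used per RNA sample. The way the deletion was driven, and which cells carried it, is not given in the sources used here, nor is the state of the animals before the brain was taken.

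The deposited values are log2 values centred on the median of each probe set over the 8 arrays, so arrays can be compared with each other but no level is kept, and they cannot show whether a gene or a marker of a cell type was expressed at all. The centring also places the 2 middle arrays of a probe set at equal distances from 0. The SD of these values over all tested probe sets was 0.831 on BSKO 2 and 0.150 to 0.314 on the other 7 arrays. For beta-actin the 5' minus 3' probe set difference was -2.44 on BSKO 2, against -0.104 to 0.489 elsewhere, and for Gapdh it was -2.43 against -0.0749 to 0.0949. WT 1 and WT 2 differed from each other by an SD of 0.166 over the tested probe sets, WT 3 and WT 4 by 0.157, and the arrays of one of these pairs differed from those of the other by 0.250 to 0.273. Among BSKO 1, 3 and 4 it was 0.310 to 0.387. The targeted gene Sirt1 was 0.0041, -0.0041, 0.082 and 0.29 on WT 1 to 4 and 0.076, -1.46, -0.20 and -0.059 on BSKO 1 to 4 on its 1 probe set, 1418640_at. The genotypes overlapped and the difference was not called (-0.50, limma adjusted p = 0.549, and -0.15, 0.428, without BSKO 2). Where this probe set lies relative to the deleted part is not given in the sources used here, so it does not check the labels. Values are therefore given for each array, and tests with all 8 arrays and without BSKO 2. In whole tissue, fewer cells of a type and less RNA per cell cannot be told apart.

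Upstream sequence, shown because CRE and CArG elements are the known entry points of the signal, was read from RefSeq on GRCm38.p6 over the 250 bases before the start. The windows used held 7 of the 10 members and had none for Arc, Egr1 and Ier2. Sequence is printed for Nr4a1, Egr2, Fos, Jun and Dusp1, and for Egr2 over a stretch of 30 bases. Letters in capitals mark the CRE half-site CGTCA on either strand (read as TGACG on the other), the CArG box, the TATA motif TATAAA and, in Jun, the AP-1 variant TGACATCA. The full CRE TGACGTCA holds 2 overlapping half-sites. Each is written 5' to 3' on the strand of the gene.
Nr4a1, chr15:101266596-101266845, plus strand: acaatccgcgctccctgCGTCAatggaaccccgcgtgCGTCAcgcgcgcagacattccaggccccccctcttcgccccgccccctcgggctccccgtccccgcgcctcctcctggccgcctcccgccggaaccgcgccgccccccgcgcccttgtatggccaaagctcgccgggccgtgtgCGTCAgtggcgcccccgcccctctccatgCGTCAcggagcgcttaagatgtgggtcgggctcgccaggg
Egr2, chr10:67537797-67537826, plus strand: CCATATATGGgcagcgaCGTCAcgggtatt
Fos, chr12:85473640-85473889, plus strand: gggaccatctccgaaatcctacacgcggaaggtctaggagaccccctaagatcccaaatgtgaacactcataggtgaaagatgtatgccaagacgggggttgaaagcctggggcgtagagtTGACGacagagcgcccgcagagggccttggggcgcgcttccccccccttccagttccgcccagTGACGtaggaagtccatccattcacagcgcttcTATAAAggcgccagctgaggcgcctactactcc
Jun, chr4:95052223-95052472, minus strand: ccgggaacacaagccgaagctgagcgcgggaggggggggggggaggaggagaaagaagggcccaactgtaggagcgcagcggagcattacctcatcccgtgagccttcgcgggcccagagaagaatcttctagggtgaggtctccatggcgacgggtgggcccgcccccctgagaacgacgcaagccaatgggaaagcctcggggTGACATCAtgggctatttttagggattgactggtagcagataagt
Dusp1, chr17:26508473-26508722, minus strand: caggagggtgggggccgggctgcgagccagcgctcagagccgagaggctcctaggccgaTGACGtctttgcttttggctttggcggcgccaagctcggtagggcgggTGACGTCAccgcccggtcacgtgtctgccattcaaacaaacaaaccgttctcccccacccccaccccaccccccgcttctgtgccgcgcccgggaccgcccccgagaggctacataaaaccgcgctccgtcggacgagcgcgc
Nr4a1 had 4 CRE half-sites, at -233, -213, -69 and -40 from the start (first base), and 0.137% of 32851 RefSeq windows, searched over the same 250 upstream bases, had 4 or more. RefSeq lists 5 starts for Egr2, and the stretch lies within 250 bases upstream of 3 of them. Counted from one of these, it holds a CArG box beginning at -72 and a half-site at -55, and 1.47% and 17.8% of windows held at least 1 of either. Dusp1 had 3 half-sites, of which 2 form the full CRE at -143, a motif found in 1.55% of windows. Fos had half-sites at -129 and -66, as did 3.9% of windows with 2 or more, and TATAAA at -33 (12.4% of windows). Jun had no half-site in this window and held TGACATCA at -45, a motif in 2.93% of windows. Junb had 1 half-site at -106 and Fosb 1 at -60. Matches are letters in a window and not measured binding.

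None of the 12 probe sets was called as different between the genotypes with all 8 arrays, by limma with Benjamini-Hochberg adjustment over 22626 probe sets at 0.05. Over all tested probe sets 0.0309% were called, 0.00884% higher and 0.0221% lower. At an unadjusted p under 0.05 there was 1 of 12, a Jun probe set, against 10.8% of all. The fit with array weights called 4 of the 12, both Jun probe sets, Fos and Dusp1, and 11.6% of all. Without BSKO 2, both Jun probe sets were called as lower, where 1.14% of all probe sets were called as lower and 1.63% in either direction. At an unadjusted p under 0.05 there were then 4 of 12, against 19.8% of all. The median log2 difference (BSKO minus WT) of the 12 was 0.19 with 8 arrays and -0.0010 without BSKO 2, beside 0.022 and 0.0089 over all tested probe sets. Of the 12 differences 7 lay above 0 with 8 arrays, beside 53.5% of all, and 6 without BSKO 2, beside 52.2%. The genes thus did not move as one. The plot of values by array shows each of them.

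**Figure D1:**
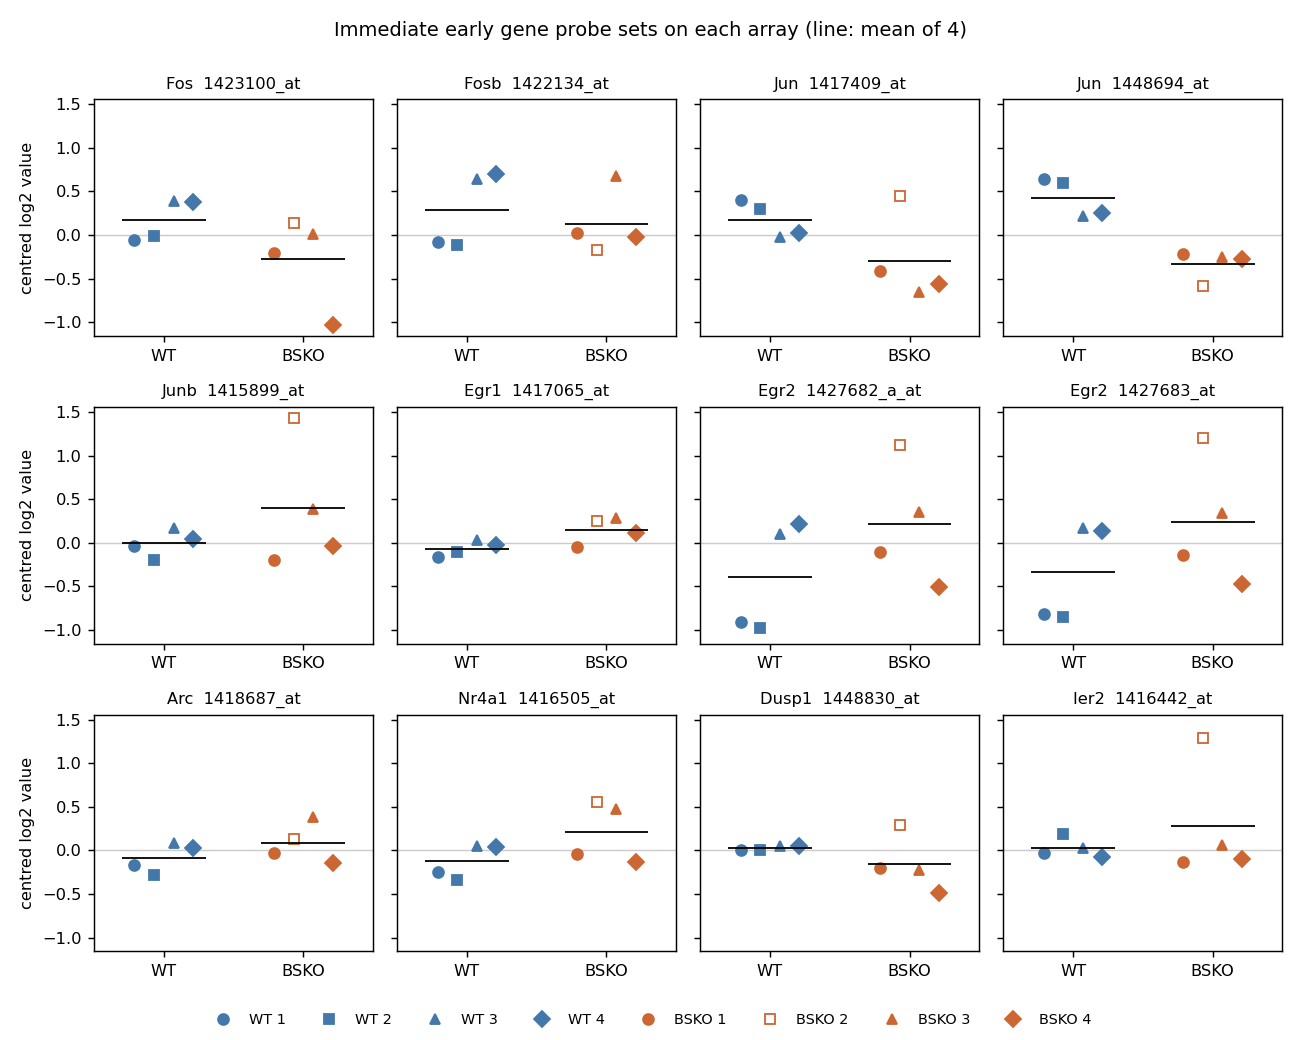
Centred log2 value (vertical axis) of each immediate early gene probe set on the 4 WT arrays (blue) and 4 BSKO arrays (orange), with marker shape for the replicate number, BSKO 2 as an open square and a line at the mean of 4 arrays. For Jun 1448694_at all BSKO arrays lie below all WT arrays, and for Junb and Ier2 BSKO 2 lies far above the other arrays.

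Jun, which encodes the c-Jun subunit of AP-1, was the only member with a probe set on which the genotypes did not overlap. Probe set 1448694_at was 0.64, 0.60, 0.22 and 0.25 on WT 1 to 4 and -0.22, -0.58, -0.25 and -0.28 on BSKO 1 to 4. All 4 BSKO arrays lay below all 4 WT arrays, as they did for 6.66% of all tested probe sets, with 5.67% separated the other way and 12.3% in either direction. WT had a mean of 0.43 ± 0.22 and BSKO of -0.33 ± 0.17 (SD, n = 4 each), a log2 difference of -0.76 (SE 0.14), or 1.69-fold lower, and limma with Benjamini-Hochberg adjustment gave an adjusted p of 0.123. Without BSKO 2 the difference was -0.68 (SE 0.12, limma adjusted p = 0.0408). Probe set 1417409_at was 0.40, 0.30, -0.024 and 0.024 on WT 1 to 4 and -0.42, 0.45, -0.65 and -0.56 on BSKO 1 to 4. Here BSKO 2 lay above every WT array, opposite to its place on the other Jun probe set, so the 2 probe sets disagree in sign on that array. BSKO 1, 3 and 4 lay below every WT array. The difference for 1417409_at was -0.47 (SE 0.24, limma adjusted p = 0.508) with 8 arrays and -0.72 (SE 0.12, limma adjusted p = 0.0361) without BSKO 2. As the mean of both probe sets, fitted over 12393 genes, Jun differed by -0.61 (limma adjusted p = 0.156) and, without BSKO 2, by -0.70 (limma adjusted p = 0.0300). A two-sided exact permutation test of that mean gave p = 0.0286 over 70 arrangements of 8 arrays, and p = 0.0286 over 35 arrangements without BSKO 2, the smallest p that either design allows.

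The calls for Jun without BSKO 2 did not withstand the loss of a further array, BSKO 1 apart. Both probe sets kept a difference between -0.60 and -0.79 in each of these fits of 6 arrays. Leaving out WT 1, WT 2, WT 3, WT 4, BSKO 3 or BSKO 4 as well gave adjusted p values from 0.0554 to 0.126 for the pair, and leaving out BSKO 1 kept both below 0.05 (0.0304 and 0.0439). With replicate number as a block the adjusted p was 0.102 for 1417409_at and 0.126 for 1448694_at. With trend and robust settings it was 0.0790 and 0.0988. Both stayed called with a term that sets replicates 1 and 2 apart from 3 and 4 (limma adjusted p = 0.00913 and 0.0163). The same held for quantile normalization (0.0432 and 0.0247), centring of arrays (0.0335 and 0.0392) and array weights (0.00945 and 0.0120).

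At the ends of the striatal range, Jun ran opposite to the striatal markers. The median of the 7 measured markers of striatal projection neurons (of 10 in the list) was -1.94, -1.79, 0.0057 and -0.084 on WT 1 to 4 and 0.059, 0.14, 1.12 and 1.03 on BSKO 1 to 4. All 10 probe sets of these markers had a positive difference, with a median of 1.62, and none was called. Jun, as the mean of its probe sets, was 0.52, 0.45, 0.098 and 0.14 on WT 1 to 4 and -0.32, -0.068, -0.45 and -0.42 on BSKO 1 to 4. It was highest on WT 1 and WT 2, where the striatal median was lowest, and lowest on BSKO 3 and BSKO 4, where the striatal median was highest. The arrays fall into separate clumps of 2, 4 and 2 on the striatal median, so no correlation is given. With that median as a covariate the difference for Jun was -0.55 (SE 0.19, limma adjusted p = 0.636) on 1448694_at and -0.034 (SE 0.30, limma adjusted p = 0.960) on 1417409_at. Without BSKO 2 the covariate fit gave -0.37 (limma adjusted p = 0.270) and -0.39 (limma adjusted p = 0.213), still lower in BSKO and no longer called. Taken among replicates 1 and 2 alone, BSKO minus WT was -1.02 for 1448694_at, and among replicates 3 and 4 it was -0.50, beside -0.33 and -0.61 for 1417409_at. Replicates 1 and 2 hold BSKO 2, which was -0.58 on 1448694_at and 0.45 on 1417409_at, so their values rest in part on that array.

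Among the other AP-1 genes, none was called in the fits with 8 and 7 arrays without array weights. Fos, the partner with which Jun forms the classical AP-1 dimer, was -0.053, -0.013, 0.39 and 0.37 on WT 1 to 4 and -0.21, 0.14, 0.013 and -1.03 on BSKO 1 to 4. The low BSKO mean rested on BSKO 4, the lowest array by a wide margin, while WT 3 and WT 4 were the highest. The difference was -0.45 (SE 0.26, limma adjusted p = 0.531), and -0.58 (SE 0.25, limma adjusted p = 0.241) without BSKO 2. Without BSKO 4 it was -0.19 (SE 0.16, limma adjusted p = 0.580). With array weights on 8 arrays, which gave BSKO 4 a weight of 3.69, the Fos difference was -0.95 (SE 0.21, limma adjusted p = 0.0228). Fosb, whose splice form deltaFosB builds up with repeated stimulation in striatum, was -0.08, -0.12, 0.65 and 0.70 on WT 1 to 4 and 0.023, -0.17, 0.67 and -0.023 on BSKO 1 to 4. WT 3, WT 4 and BSKO 3 formed a high group and the other 5 arrays a low one, so the values split across the genotypes (difference -0.16, SE 0.26, limma adjusted p = 0.777). With the striatal median in the model the difference of Fosb was -0.81 (SE 0.22), farther from 0 and not called (limma adjusted p = 0.636). Junb, a weaker AP-1 activator than c-Jun, was -0.041, -0.19, 0.17 and 0.038 on WT 1 to 4 and -0.19, 1.43, 0.39 and -0.038 on BSKO 1 to 4. BSKO 2 stood far above the rest, and the difference of 0.41 (SE 0.32) with 8 arrays became 0.061 (SE 0.15) without it (limma adjusted p = 0.612 and 0.856).

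The Egr genes and Nr4a1 had positive differences that were not called. Egr1, also known as Zif268 and widely used as an activity marker, was -0.17, -0.11, 0.028 and -0.028 on WT 1 to 4 and -0.051, 0.25, 0.28 and 0.11 on BSKO 1 to 4. The groups overlapped by BSKO 1 alone, which lay below WT 3 and WT 4, and the difference was 0.22 (SE 0.11, limma adjusted p = 0.503) with 8 arrays and 0.18 (limma adjusted p = 0.326) without BSKO 2. Egr2, known as Krox20, was -0.81, -0.85, 0.17 and 0.14 on WT 1 to 4 and -0.14, 1.20, 0.34 and -0.47 on BSKO 1 to 4 on probe set 1427683_at. WT 1 and WT 2 were the lowest arrays and BSKO 2 the highest. Probe set 1427682_a_at had -0.91, -0.97, 0.11 and 0.22 on WT 1 to 4 and -0.11, 1.12, 0.36 and -0.51 on BSKO 1 to 4, the same order of arrays apart from WT 3 and WT 4, which changed places. The differences were 0.57 (SE 0.39) and 0.61 (SE 0.41), with limma adjusted p values of 0.577 and 0.568. Within replicates 1 and 2, BSKO 2 included, BSKO was higher by 1.36 on 1427683_at, and within replicates 3 and 4 the difference was -0.22. Thus the genotypes differed in opposite directions in the 2 sets of replicates. Nr4a1, an orphan nuclear receptor also called Nur77, was -0.24, -0.34, 0.049 and 0.042 on WT 1 to 4 and -0.042, 0.55, 0.48 and -0.14 on BSKO 1 to 4. BSKO 2 and BSKO 3 were high, WT 1 and WT 2 low, and the difference of 0.34 (SE 0.19) was within this spread (limma adjusted p = 0.526). With the striatal median in the model the difference of Nr4a1 was 0.13 with 8 arrays and -0.10 without BSKO 2, and that of Egr2 on 1427683_at was 0.11 and -0.54. Both signs thus turned without BSKO 2, and none of these was called (limma adjusted p = 0.534 to 0.931).

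**Figure D2:**
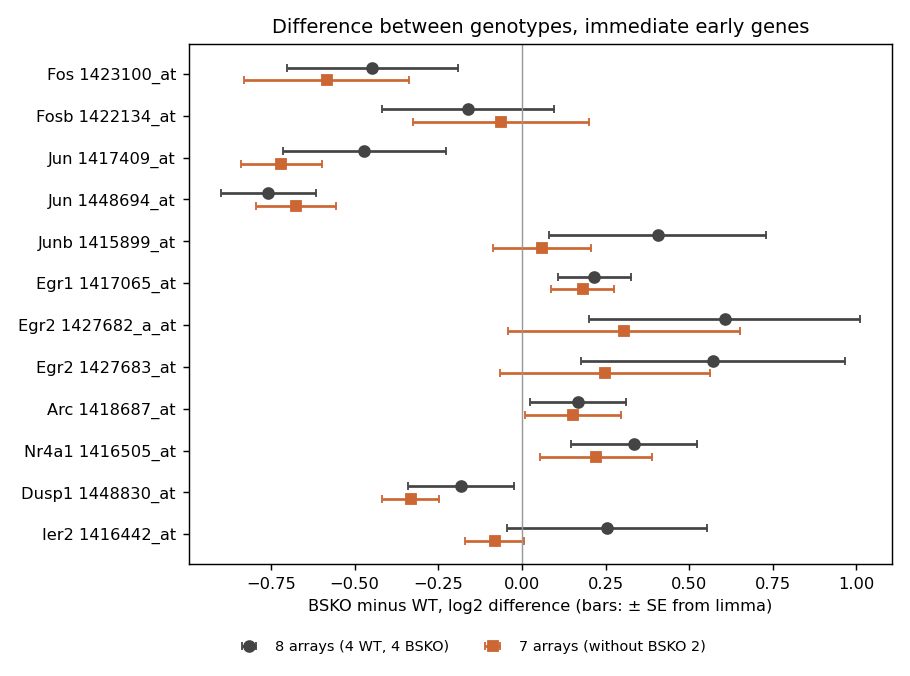
Log2 difference between the genotypes (BSKO minus WT, horizontal axis) for each probe set, with bars of 1 SE from limma, for 8 arrays (circles) and without BSKO 2 (squares). Both Jun probe sets lie well below 0 in both fits, and the positive differences of Junb and Ier2 are near 0 without BSKO 2.

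Arc, whose mRNA is carried to active synapses where its protein drives removal of AMPA receptors, was -0.17, -0.28, 0.081 and 0.028 on WT 1 to 4 and -0.028, 0.13, 0.38 and -0.15 on BSKO 1 to 4. BSKO 3 was the highest array and WT 2 the lowest, and the difference was 0.17 (SE 0.14, limma adjusted p = 0.627). Ier2, a nuclear protein gene induced by growth factors, was -0.03, 0.18, 0.03 and -0.081 on WT 1 to 4 and -0.14, 1.29, 0.062 and -0.095 on BSKO 1 to 4. It was the flattest member on the 7 arrays other than BSKO 2, with a range of 0.32, and its difference went from 0.25 to -0.081 when BSKO 2 was left out. Dusp1, which encodes a phosphatase that switches off MAP kinases, was -0.00092, 0.00092, 0.049 and 0.049 on WT 1 to 4 and -0.20, 0.29, -0.23 and -0.49 on BSKO 1 to 4. The 4 WT arrays lay between -0.00092 and 0.049, BSKO 1, 3 and 4 lay below all of them and BSKO 2 above. The difference was -0.18 (SE 0.16, limma adjusted p = 0.631) with 8 arrays and -0.33 (SE 0.085, limma adjusted p = 0.0964) without BSKO 2, where the exact permutation p was 0.0286 over 35 arrangements. Without BSKO 2 the groups did not overlap for 3 of the 12 probe sets, both of Jun and that of Dusp1, all lower, where 10.3% of all probe sets were lower in this way, 9.21% higher and 19.5% one or the other.

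BSKO 2 was the highest array for 7 of the 12 probe sets and the lowest for 2, beside 40.2% and 35% of all tested probe sets. The part that the 5' to 3' difference on this array plays in its values was not tested. WT 1 and WT 2 both lay below WT 3 and WT 4 for 9 of the 12 probe sets, beside 23% of all. The exceptions were the 2 Jun probe sets and Ier2.

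**Figure D3:**
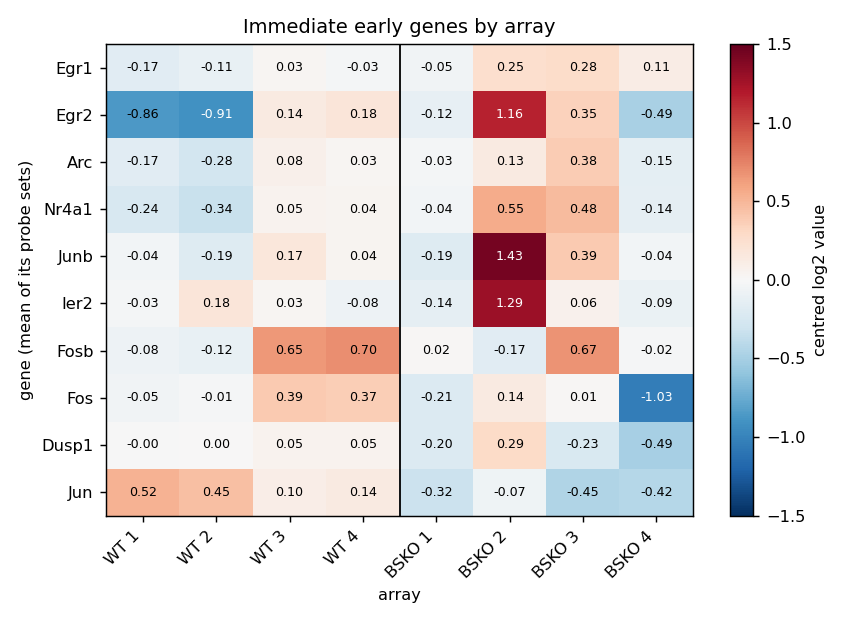
Centred log2 value of each gene (rows, mean of its probe sets) on each array (columns), printed in each cell and shaded from blue (low) to red (high), with a line between WT and BSKO. Egr2 is -0.86 and -0.91 on WT 1 and WT 2 and 1.16 on BSKO 2, while Jun is above 0 on all WT arrays and below 0 on all BSKO arrays.

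Across the 8 arrays the members formed a set of Egr1, Egr2, Arc, Nr4a1 and Junb, and a pair of Fos and Dusp1, while Jun had r below 0 with each gene of the set of 5. These sets were read from the correlations and are a description. Of 45 pairs of genes, 4 had an adjusted p under 0.05 by Pearson's r and 3 by Spearman's rho (two-sided exact permutation of pairings, Benjamini-Hochberg adjustment over 45 pairs), with 2 in both. No share over pairs of other genes was computed to set beside these counts. The permutation treats the 8 arrays as exchangeable, while BSKO 2 was the highest array for 40.2% of all tested probe sets and the lowest for 35%. These p-values therefore do not set the members apart from other genes. Egr2 and Nr4a1 were the closest, with r = 0.93 (exact permutation p = 4.96e-05, adjusted p = 0.00223) and rho = 0.98 (exact permutation p = 0.000397, adjusted p = 0.00893). Arc and Nr4a1 had r = 0.90 (exact permutation p = 0.000595, adjusted p = 0.0134) and rho = 0.98 (exact permutation p = 0.000397, adjusted p = 0.00893). Both pairs were high on BSKO 3 and low on WT 1 and WT 2. Without the 2 arrays farthest from the median of the first gene, r was 0.84 for Egr2 and Nr4a1 (without WT 2 and BSKO 2) and 0.86 for Arc and Nr4a1 (without WT 2 and BSKO 3). Without BSKO 2 alone these were 0.89 and 0.99, and on deviations from each genotype's mean 0.92 and 0.88. Junb with Nr4a1 (r = 0.84, exact permutation p = 0.00141, adjusted p = 0.0212, rho = 0.86 with adjusted p = 0.0980) and with Egr2 (r = 0.85, exact permutation p = 0.00360, adjusted p = 0.0405, rho = 0.83 with adjusted p = 0.0980) passed by Pearson's r alone. Without BSKO 2 and BSKO 3 they had r = 0.63 and 0.57. Egr2 with Arc passed by rho alone (r = 0.78, exact permutation p = 0.0218, adjusted p = 0.108, rho = 0.95 with adjusted p = 0.0171), and r was 0.84 without WT 2 and BSKO 2. The 10 pairs among Egr1, Egr2, Arc, Nr4a1 and Junb had r from 0.55 to 0.93, and from 0.67 to 0.99 without BSKO 2. Without BSKO 2 and BSKO 3, the r of Egr1 was 0.39 with Arc, 0.40 with Junb, 0.50 with Egr2 and 0.52 with Nr4a1. Fosb had r from -0.10 to 0.63 with these 5 genes over 8 arrays and from 0.55 to 0.90 without BSKO 2.

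Fos and Dusp1 had r = 0.81 (exact permutation p = 0.0203, adjusted p = 0.108) and rho = 0.76 (exact permutation p = 0.0368, adjusted p = 0.138). BSKO 4 was the lowest array for both, and without WT 3 and BSKO 4 the correlation was 0.54. Junb and Ier2 had r = 0.92 (exact permutation p = 0.0409, adjusted p = 0.168) and rho = 0.57 (exact permutation p = 0.151, adjusted p = 0.378). That relation rested on BSKO 2, where both were highest, and r was 0.17 without it. Jun ran against Egr1 in part (r = -0.72 (exact permutation p = 0.0509, adjusted p = 0.191) and rho = -0.81 (exact permutation p = 0.0218, adjusted p = 0.0980)), and on deviations from the genotype means their r was -0.28. The r of Jun with the other 9 genes ranged from -0.72 to 0.59, and from -0.81 to 0.79 without BSKO 2, the highest with Dusp1 in both. All these arrays share the split between WT 1 with WT 2 and WT 3 with WT 4, and the part of that split was not tested.

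**Figure D4:**
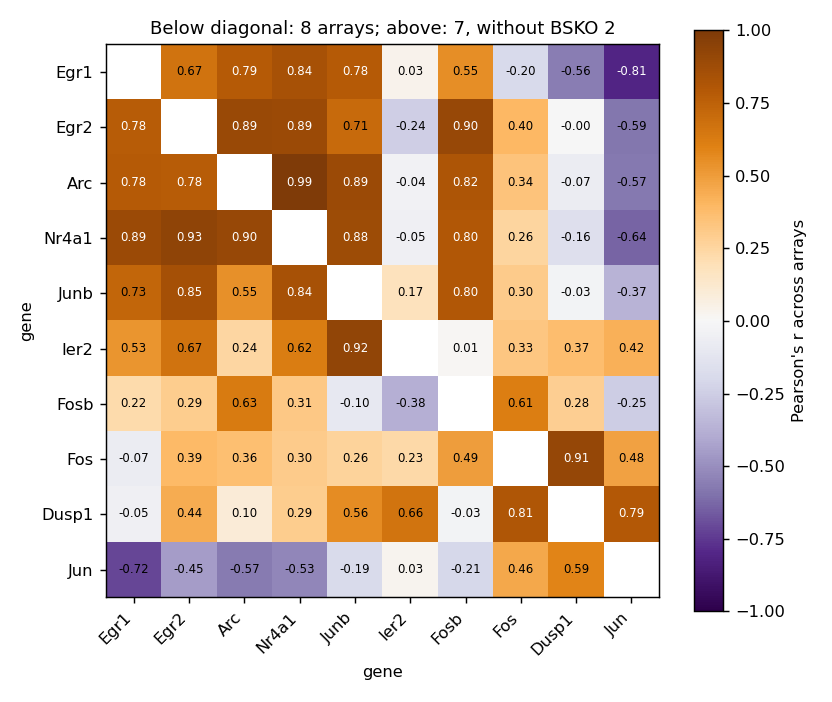
Pearson's r across arrays for each pair of genes, below the diagonal over 8 arrays and above it over 7 arrays without BSKO 2, from purple (negative) to orange (positive). Egr1, Egr2, Arc, Nr4a1 and Junb have positive r with each other on both sides (0.55 to 0.99), and Junb with Ier2 goes from 0.92 to 0.17.

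**Figure D5:**
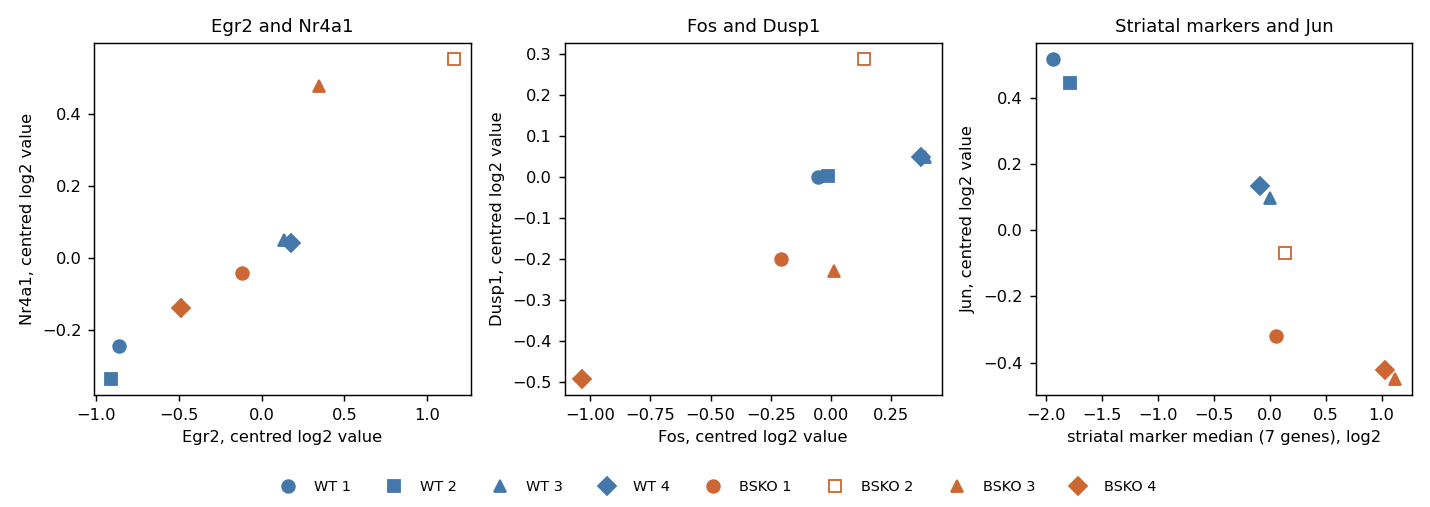
Values of Egr2 against Nr4a1, of Fos against Dusp1, and of the striatal marker median against Jun, in centred log2 units, with 1 point per array. In the first panel WT 1 and WT 2 lie at the low end and BSKO 2 at the high end, in the second BSKO 4 is lowest on both axes, and in the third Jun is 0.52 and 0.45 on WT 1 and WT 2, where the striatal median is -1.94 and -1.79.

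Outside the 10 genes, those whose pattern was nearest to the per-array median of the members were Srsf9 (r = 0.97), Pfdn2 (r = 0.95), Usf1 (r = 0.95), Zfp362 (r = 0.95) and Csnk1e (r = 0.94) over 8 arrays, among 12383 genes compared. Over the 7 arrays without BSKO 2 they were Sorcs3 (r = 0.99), Rcor1 (0.98), Entr1 (0.98), Ltbp1 (0.98) and Dhx57 (0.97). The median of the members itself was -0.066, -0.11, 0.089 and 0.045 on WT 1 to 4 and -0.13, 0.27, 0.31 and -0.14 on BSKO 1 to 4, highest on BSKO 3 and BSKO 2. None of the top 5 was shared by both rankings. They were ranked first out of all these genes over few arrays, so they are given as a description, with no p.

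Other transcription factor genes of the same response were measured for 18 of 20 list members, on 29 probe sets. None was called with 8 arrays, where 5 had an unadjusted p under 0.05 (10.8% of all probe sets did), and without BSKO 2 Ier5 was called as higher, as were 0.495% of all probe sets, and none as lower. Ier5, a relative of Ier2, was -0.43, -0.56, 0.036 and -0.036 on WT 1 to 4 and 0.52, -1.09, 0.91 and 0.73 on BSKO 1 to 4 on 1460009_at (0.97 without BSKO 2, limma adjusted p = 0.0386, and 0.51 with 8 arrays, limma adjusted p = 0.613). Its second probe set 1417612_at was -0.75, -0.78, -0.19 and -0.29 on WT 1 to 4 and 0.19, 0.30, 0.44 and 0.33 on BSKO 1 to 4. There all 8 arrays separated the genotypes, BSKO 2 included (difference 0.82, SE 0.16, limma adjusted p = 0.133, and 0.0527 without BSKO 2). On its remaining probe set, 1417613_at, the difference was smaller, 0.33 (0.485) and, without BSKO 2, 0.18 (0.232). For the genes named next, the probe set with the smallest p is given. The antiproliferative factor gene Btg2 differed by -1.09 (limma adjusted p = 0.288), the AP-1 gene Fosl1 by 0.36 (0.337) and Nr4a2, a factor of midbrain dopamine neurons and a relative of Nr4a1, by -1.43 (0.365). On their other probe sets the differences were -0.60 for Btg2, 0.0056 for Fosl1 and -0.91 for Nr4a2, with 8 arrays. The median difference of the 29 probe sets was 0.10, and -0.032 without BSKO 2.

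Effector genes of the response were measured for 20 of 22 list members, on 32 probe sets, with a median difference of -0.13, and -0.043 without BSKO 2. At an unadjusted p under 0.05 there were 8 of 32 with 8 arrays, beside 10.8% of all probe sets. Without BSKO 2 there were 11 of 32, beside 19.8%. One of 32 was called with 8 arrays, that of Ptgs2, the inducible cyclooxygenase, on 1417262_at (-1.27, SE 0.12, limma adjusted p = 0.0208), where 0.0221% of all probe sets were called as lower. Without BSKO 2, this probe set of Ptgs2 (-1.20, limma adjusted p = 0.00791) and 1422169_a_at of the neurotrophin gene Bdnf (-0.87, limma adjusted p = 0.0157) were called, both as lower, as were 1.14% of all. With 8 arrays the latter differed by -0.95 (limma adjusted p = 0.0652). Ptgs2 was 0.47, 0.53, 0.71 and 0.72 on WT 1 to 4 and -0.77, -0.86, -0.47 and -0.54 on BSKO 1 to 4 on 1417262_at, and Bdnf 0.39, 0.33, 0.49 and 0.46 on WT 1 to 4 and -0.66, -0.74, -0.37 and -0.33 on BSKO 1 to 4 on 1422169_a_at. All BSKO arrays lay below all WT arrays on both. The second probe sets of these genes, 1417263_at of Ptgs2 (-0.92, 0.259, and -0.77, 0.119, without BSKO 2) and 1422168_a_at of Bdnf (-1.05, 0.428, and -0.59, 0.0738), were also lower on all BSKO arrays and were not called. Inhba, a subunit gene of activin, differed by 1.16 (limma adjusted p = 0.242) and the period gene Per1 by 0.35 (0.257). Ptgs2 and Bdnf were known from earlier results of these data when the list was made. Both probe sets of each had an unadjusted p under 0.05 in both fits and are within the counts above. Those counts therefore do not show an excess of the list over all probe sets.

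Other MAP kinase phosphatase and Sprouty inhibitor genes, 9 of 11 measured on 16 probe sets, held none called with 8 arrays or without BSKO 2. None had an unadjusted p under 0.05 with 8 arrays and 2 of 16 did without BSKO 2, beside 19.8% of all probe sets. Dusp6, which acts on ERK, was -0.06, 0.06, 0.34 and 0.39 on WT 1 to 4 and -0.28, 0.29, -0.17 and -0.42 on BSKO 1 to 4, and as for Dusp1, BSKO 1, 3 and 4 lay below all WT arrays and BSKO 2 did not (difference -0.33, limma adjusted p = 0.521, and -0.47, 0.106, without BSKO 2). The differences of Spry4, Dusp10 and Spry2, on the probe set of each with the smallest p, were 0.23, -0.17 and 0.17, and 0.16, -0.078 and 0.06 without BSKO 2. Their other probe sets, 1422021_at, 1417164_at and 1436584_at, had 0.17, -0.21 and -0.066. Without BSKO 2 these had -0.0046, -0.38 (limma adjusted p = 0.0933) and -0.075. On 1417164_at of Dusp10, BSKO 1, 3 and 4 lay below all WT arrays, as for Dusp6. Of all probe sets 10.3% were lower in this way without BSKO 2. Kinases, receptors and factors upstream of the response, such as CREB, SRF, MEF2 and the NMDA receptor, were measured for 21 of 28 list members on 44 probe sets. None was called in either fit, with 2 and 5 of 44 at an unadjusted p under 0.05, beside 10.8% and 19.8% of all, and a median difference of 0.041 with 8 arrays and 0.078 without BSKO 2. The SRF coactivator gene Mrtfa differed by 0.44, the ERK kinase gene Map2k2 by 0.44, the transcription factor gene Mef2c by -0.36 and the NMDA receptor subunit gene Grin2b by 0.65, with limma adjusted p values from 0.401 to 0.504. Without BSKO 2 these were 0.34, 0.27, -0.29 and 0.30, and the other probe set of Grin2b, 1422223_at, had -0.11 with 8 arrays.

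Other marker lists gave the following medians per array. The 5 measured dentate gyrus genes of 6, a region where these genes respond strongly, were 0.72, 0.77, 0.038 and 0.0094 on WT 1 to 4 and -0.25, -0.078, -0.24 and -0.35 on BSKO 1 to 4, highest on WT 1 and WT 2 as for Jun and opposite to Egr2, Arc and Nr4a1. The 5 of 7 cortical and hippocampal excitatory neuron genes ranged from 0.064 to 0.25 in WT and from -0.40 to 0.081 in BSKO. The 6 pan-neuronal genes ranged from 0.051 to 0.085 in WT and from -0.93 to 0.031 in BSKO, lowest on BSKO 2. The medians of the microglial, astrocyte, oligodendrocyte, interneuron, cerebellar and endothelial lists stayed between -0.49 and 0.25 on all arrays. The 8 meningeal genes ranged from 0.14 to 0.74 in WT and from -0.51 to -0.17 in BSKO, without overlap. The medians of the striatal, dentate, pan-neuronal, astrocyte and heat shock lists did not overlap between the genotypes either. Of all single probe sets 12.3% did not overlap in one direction or the other with 8 arrays. The 5 of 6 blood cell genes had 0.76 on BSKO 2, the highest array, as for Junb and Ier2. The 7 heat shock genes, which share stress as an inducer with Fos, Jun and Dusp1, had a median of 0.082, 0.066, 0.011 and 0.073 on WT 1 to 4 and -0.051, -0.14, -0.13 and -0.14 on BSKO 1 to 4, below 0 on all BSKO arrays. With 8 arrays no probe set of these lists was called. Without BSKO 2, 2 of 17 meningeal, 3 of 17 heat shock, 2 of 6 excitatory neuron and 1 of 8 dentate probe sets were called. All were lower, as were 1.14% of all probe sets. The part of these cell types and of stress in the values of the immediate early genes was not tested.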

How the data were processed

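Total RNA of whole brain from 8 mice was hybridised to Affymetrix Mouse430A_2 arrays, and the authors made the log2 values with RMA, per the submitters' processing notes (version not given in the sources used here). As deposited, all probe sets but 1 of 22690 are centred to a median of 0 (within 1e-05), a step that no label records. The 64 control probe sets were left out and 22626 tested, with no filter. Symbols came from the platform annotation, checked by gene number against RefSeq of GRCm38.p6 (20380 probe sets with 1 symbol, 691 with several, 1555 with none).

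The comparison of genotypes used lmFit and eBayes of limma 3.58.1 under R 4.3.3 (two-sided, no covariate, p-values adjusted by Benjamini-Hochberg over the whole table, threshold 0.05) on 8 arrays and without BSKO 2, with exact permutation tests of single values. A gene's value is the mean of its probe sets. The scripts were tested on simulated data. The members, lists, rules and tests were chosen with earlier results of these data known. Named genes are all members, up to 4 genes per related list with the smallest p, any called there, and the 5 most similar genes in each of 2 rankings. Alternatives were quantile normalization, centring of arrays, cross-hybridising probe sets left out, array weights, trend and robust settings, the replicate number as a block, replicates 1 and 2 against 3 and 4, each array left out, a threshold of 0.10 and 1 value per gene. The striatal covariate and the alternatives on 7 arrays were added after seeing the data. No filter on brightness could be run on centred values. Figures were drawn with matplotlib 3.10.9. The number of arrays limits the precision.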

Additional observations from a re-analysis of the deposited data

Results flagged for a closer look

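Of 24 groups of 4 arrays (12 probe sets in 2 genotypes), 2 held an array far from the other 3 by Dixon's test for an outlier, where chance gives about 1 in 20. On Jun 1448694_at, BSKO 2 was -0.58 and the nearest BSKO array -0.28, a gap of 0.836 of the group's range. On Ier2 1416442_at, BSKO 2 was 1.29 and the nearest BSKO array 0.062, a gap of 0.861 of the range. Both are on BSKO 2, the array whose 5' to 3' differences for beta-actin and Gapdh stood apart.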

How the results depend on the processing

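Of the 12 immediate early gene probe sets, 0 were called with 8 arrays. The number was 1 after quantile normalization and 1 with trend and robust settings (Jun in both), 4 with array weights, which gave BSKO 2 a weight of 0.0456 and BSKO 4 3.69, and 0 to 2 when 1 array was left out. It was 0 with the other alternatives, the replicate block and the threshold of 0.10 included. Without BSKO 2 the 2 called became 0 with trend and robust settings, with the replicate block and with the striatal covariate, 4 with array weights, 1 with 1 value per gene (Jun) and 0 to 2 when a further array was left out. They stayed 2 with quantile normalization, with centring of arrays and with the term for replicates 1 and 2 against 3 and 4. The sign of Ier2 turned after quantile normalization (-0.0084), with array weights (-0.11) and without BSKO 2 (-0.081), and that of Arc with the striatal covariate (-0.043). The other 10 probe sets kept their sign in each fit that began from 8 arrays. Among probe sets of related lists the 1 called became 7 after quantile normalization, 2 with trend and robust settings, 22 with array weights, 4 with a term that sets replicates 1 and 2 apart from 3 and 4, 2 at a threshold of 0.10 and 0 with the replicate block, the striatal covariate or 1 value per gene, and 0 to 3 when 1 array was left out. Over all probe sets the 7 called became 678, 108, 2617, 84 and 66 in the first 5 of these and 0 with the block or the covariate, with 0 to 369 when 1 array was left out. Same-numbered arrays had correlated deviations of 0.0858, 0.0562, 0.140 and 0.129, and WT 1 correlated best with BSKO 2 (0.0878), so the numbers were not taken as pairs. The median r of the 45 pairs was 0.39, and 0.58 on deviations from the genotype means, with 0.28 to 0.49 when 1 array was left out. By the exact permutation test 1 gene had p under 0.05 with 8 arrays, Jun, and 2 without BSKO 2, Jun and Dusp1. Each had the smallest p that the design allows, 0.0286, which needs groups that do not overlap. Of all probe sets 12.3% did not overlap with 8 arrays and 19.5% without BSKO 2, in either direction. No share of all genes was computed for this test. The cause of these changes was not tested.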
